A study of Arabidopsis thaliana with 2 samples.

Results

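The calmodulin-like (CML) and IQ-domain (IQD) genes described here are the 22 probe sets, of 22746 plant probe sets on the array, that the platform's gene table pairs with 1 gene whose symbol is CML, IQD, CPK, CIPK or CBL followed directly by a number. The rule uses names only and no measured value, but it was chosen with earlier results of these data known. It found 7 CML and 15 IQD genes, each with 1 probe set and a locus of its own, and no CPK, CIPK or CBL gene, although the reference gene table of assembly TAIR10.1 lists 29, 21 and 9 genes with such symbols. CPK kinases, and CIPK kinases with their CBL partners, were therefore not analysed here, and the account covers CML calcium sensors and IQD proteins. The same reference table lists 33 genes with an IQD symbol and 8 with a CML symbol, and further CML genes can stand in it under locus names.

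Pericycle cells, the outermost layer of the root's vascular cylinder, were sorted by fluorescence from protoplasted seedling roots of Arabidopsis thaliana, ecotype Columbia, carrying the GFP reporter J2661. After 6 days on standard medium both groups were held for 24 h, either on medium with iron (+Fe) or on medium with 0.3 mM ferrozine, an iron chelator, in place of iron (-Fe), and were 7 days old at harvest. The reporter marks the cells that were sorted, and RNA was amplified in successive rounds before hybridisation to Affymetrix arrays. There was 1 array per condition, labelled replicate 1, so no difference below has a replicate check, "higher" and "lower" say only what these 2 arrays read, and no p-value was computed.

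Calcium acts as a second messenger in plant cells: a stimulus changes its level in the cytosol, and proteins with EF-hand loops bind it and change shape. Calmodulins and the related CML proteins carry such loops and pass the signal to other proteins, while CPK proteins join the loops to a kinase and CBL proteins recruit CIPK kinases. In Arabidopsis roots, CIPK kinases are known to phosphorylate the iron regulator FIT and the iron transporter IRT1. IQD proteins are plant-specific and bind calmodulin or CML proteins through IQ motifs, and many of them sit on microtubules or at the plasma membrane, where they are thought to act as scaffolds.

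CML37 was the member that stood apart. It was 3.03-fold higher without iron as deposited, and 2.08-fold higher against probe sets of the same brightness. No other member differed by 1.5-fold in either direction, by either measure. Of all plant probe sets, 12.6% passed 1.5-fold upward and 0.233% downward as deposited. Against probe sets of the same brightness these shares were 0.567% and 0.774%. CML38, IQD28 and IQD24 were 1.44-fold, 1.44-fold and 1.37-fold higher as deposited, which is close to what probe sets of the same brightness showed. Against such probe sets IQD33 and IQD32 were lower, at log2 differences of -0.43 and -0.38, and IQD26 came next at -0.15.

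Values are deposited intensities in arbitrary linear units. The median over all plant probe sets was close to 0.86 on the geometric mean of both arrays (0.862), and a member at or above it is called bright below. On this pair of arrays dim probe sets were mostly lower and bright ones mostly higher without iron: the median log2 difference was -0.28 over the 11373 dim plant probe sets and 0.38 over the 11373 bright ones. Each log2 difference (the array without iron over the array with iron) is therefore given on the deposited scale and also trend-corrected, that is, after a smooth curve of difference on mean log2 value had been subtracted. The local SD beside it is a robust SD of the trend-corrected differences of the 500 probe sets nearest in brightness, which measures how genes vary and holds no replicate error. The 27 Bacillus control probe sets, for transcripts that no plant makes, read 0.531 to 0.727 with iron and 0.389 to 0.635 without. All 27 read lower on the array without iron (median log2 difference -0.42), while the 9 hybridisation controls, which read 1.54 to 37.9 with iron, were all higher, with a median of 0.36. A member at or below the highest Bacillus control on its array has no measured signal above that background. In sorted cells pooled as here, fewer cells of a type and less RNA per cell cannot be told apart.

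**Figure D1:**
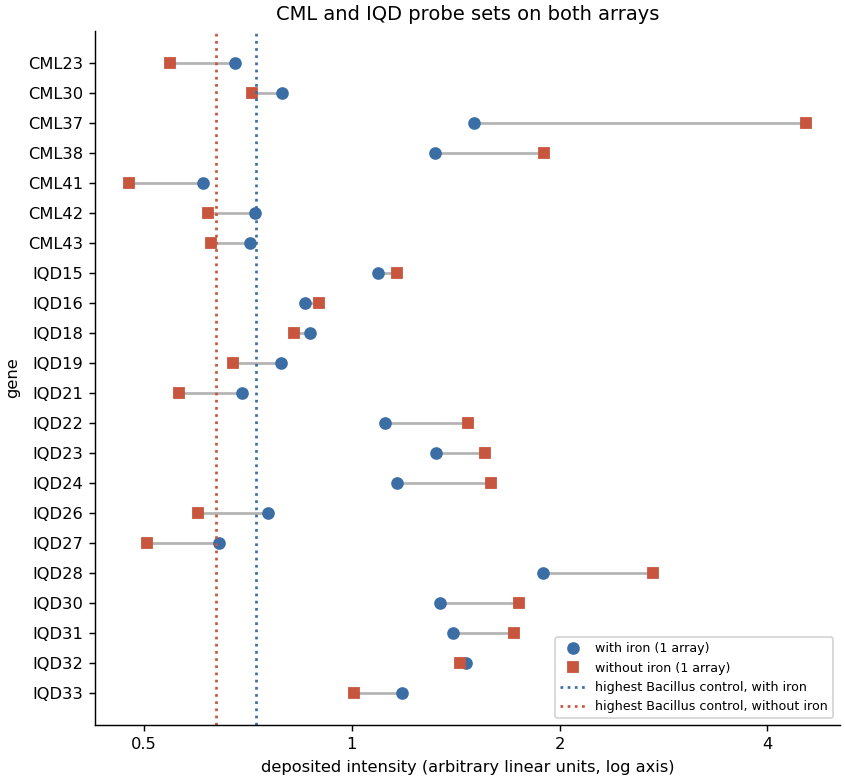
Deposited intensity of each of the 22 CML and IQD probe sets (log axis, arbitrary linear units) on the array with iron (circles) and the array without iron (squares), 1 array each, with no error bars because there are no replicates. Dotted lines mark the highest Bacillus control of each array, 0.727 with iron and 0.635 without, and the point farthest right is CML37 without iron, at 4.55.

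Among the calcium sensors, CML37 (AT5G42380), which encodes a calmodulin-like protein known as a positive regulator of jasmonate-dependent defence against herbivores, read 1.502 with iron and 4.547 without. Its log2 difference was 1.60 on the deposited scale, rank 13 of 22746 plant probe sets. It was 1.05 after trend correction, a 2.08-fold difference with a local SD of 0.25 and rank 11. CML37 was thus high on the array without iron both on the deposited scale and against probe sets of its own brightness. At least 1.5-fold higher values were seen at 12.6% of all plant probe sets on the deposited scale and at 0.567% after trend correction, and CML37 was the 1 member of 22 past each. Past 2-fold were 1.08% and 0.0572% of all plant probe sets, and again CML37 was the 1 member. The authors' deposited table gives CML37 a q value of 0.0387, and 6 of the 22 members have a lower one there.

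CML38 (AT1G76650), a calmodulin-like protein induced by low oxygen and found in stress granules, read 1.32 with iron and 1.90 without. Its log2 difference was 0.53 on the deposited scale and 0.14 after trend correction, with a local SD of 0.20. The value without iron was the higher one, yet most of its difference was the 0.39 that the brightness curve gives at that level. In the authors' deposited table its q value was 0.143. The neighbouring gene on the chromosome, AT1G76640, is not a member by its symbol but carries the synonym CML39 in the reference table, and was looked at after the members' values had been seen. It read 1.32 with iron and 1.43 without, a log2 difference of 0.11 on the deposited scale and -0.21 after trend correction. On the deposited scale CML37 was 3.03-fold higher, CML38 1.44-fold and AT1G76640 1.08-fold. After trend correction their log2 differences were 1.05, 0.14 and -0.21. CML38 was then within 1 local SD of the curve, and AT1G76640 was below the curve at -1.08 local SD. No test of the difference between these genes was possible.

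The other 5 calmodulin-like genes were dim on both arrays. CML30 (AT2G15680), a CML reported in mitochondria, read 0.793 with iron and 0.717 without, both above the Bacillus controls, with a log2 difference of -0.14 on the deposited scale and -0.06 after trend correction. CML23, which acts with its close relative CML24 in flowering time and nitric oxide signalling, read 0.677 and 0.545. CML41, which promotes callose deposition at plasmodesmata during immunity, read 0.608 and 0.476. Neither value of CML23 or CML41 exceeded the highest Bacillus control of its array. The same was true of CML42, a regulator of trichome branching and herbivore defence, at 0.725 with iron and 0.619 without, and of CML43, a sensor linked to the hypersensitive response, at 0.712 and 0.624. All 5 dim CML genes read lower without iron on the deposited scale, as did 10470 of the 11373 dim plant probe sets. After trend correction these 5 lay between -0.06 and 0.0049.

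**Figure D2:**
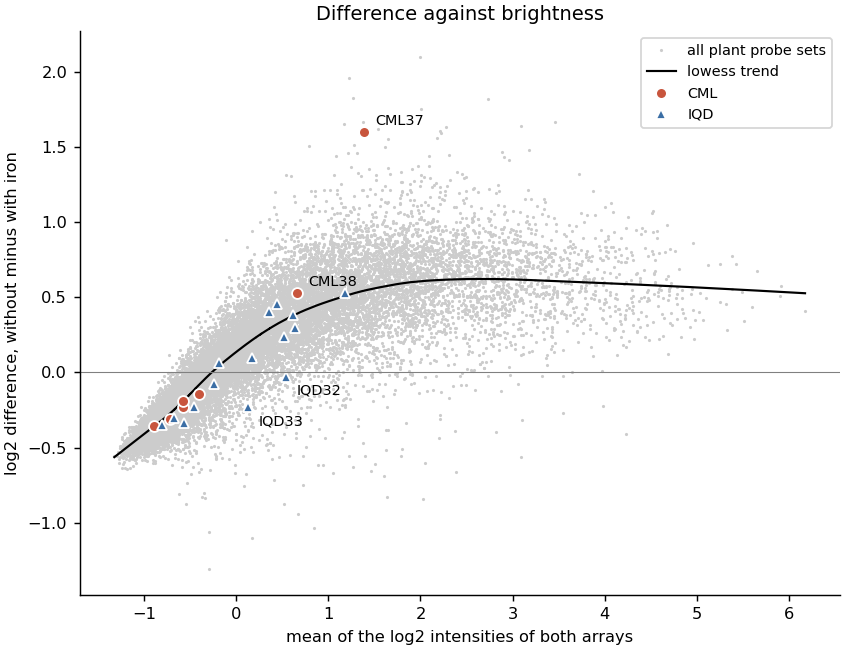
Log2 difference (value without iron over value with iron) against the mean log2 intensity of both arrays for all 22746 plant probe sets (grey), 7 CML genes (circles) and 15 IQD genes (triangles), with the lowess trend in black. CML37 lies 1.05 above the trend, IQD32 and IQD33 lie at -0.38 and -0.43 from it, and most members follow it from negative differences when dim to positive ones when bright.

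The IQD genes were brighter as a set than the CML genes: 10 of 15 were bright, against 2 of 7, which describes these probe sets and not transcript amounts. None of the 15 differed by 1.5-fold, on either scale. At least 1.5-fold lower values were seen at 0.233% of all plant probe sets on the deposited scale and at 0.774% after trend correction, with 0 of the 22 members past either. As deposited 8 IQD genes read higher and 7 lower, beside 49.9% higher over all plant probe sets, with a median log2 difference of 0.06. After trend correction 5 lay above and 10 below 0, with a median of -0.09, and the largest distances were negative. Below 0 were 49.2% of all plant probe sets. Within 1 local SD of the curve were 11 of the 15 IQD genes, beside 67.8% of all plant probe sets.

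IQD33 (AT5G35670) read 1.18 with iron and 1.01 without, both above the Bacillus controls. Its log2 difference was -0.23 on the deposited scale and -0.43 after trend correction, with a local SD of 0.17. Taking all bright plant probe sets together, 931 of the 11373 were lower without iron. That share was not counted among probe sets of the same brightness as IQD33. IQD32 (AT1G19870) read 1.46 with iron and 1.44 without. As deposited its values were nearly equal, at a log2 difference of -0.0282, but after trend correction it was at -0.38, with a local SD of 0.18. IQD32 and IQD33 were the only members at least 2 local SD below the curve, as were 3.94% of all plant probe sets, and CML37 was the only one at least 2 local SD above it, as were 3.24%. In the authors' deposited table the q values were 0.135 for IQD33 and 0.210 for IQD32.

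**Figure D3:**
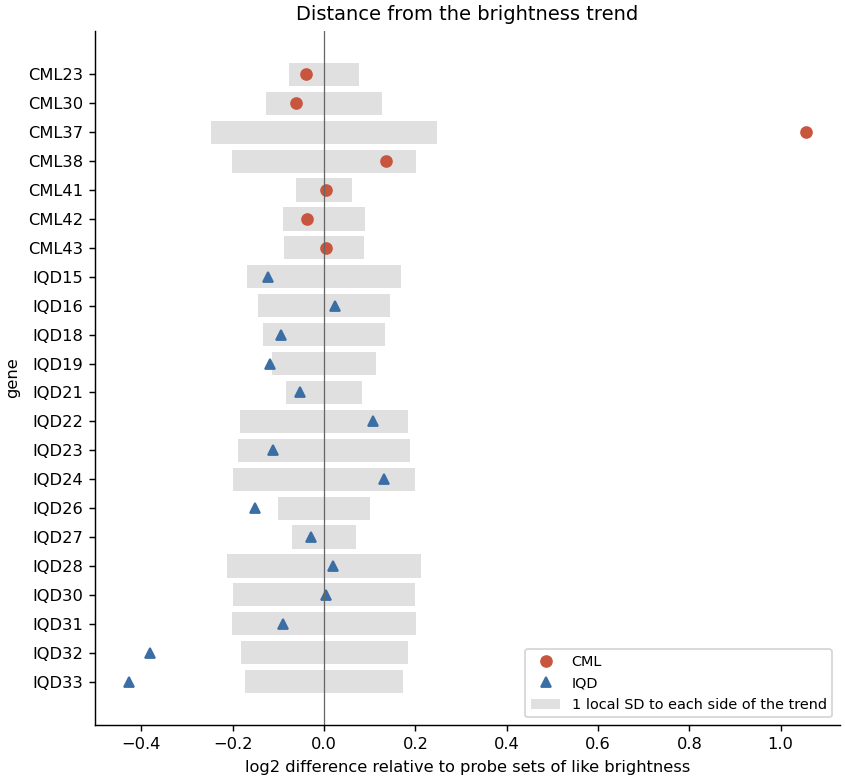
Trend-corrected log2 difference of each member, with grey bars for 1 local SD (robust SD of the 500 probe sets nearest in brightness) to each side of 0. CML37 at 1.05, IQD33 at -0.43 and IQD32 at -0.38 lie more than 2 local SD from 0, and 17 of the 22 members lie within 1.

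IQD28 (AT1G14380) read 1.89 with iron and 2.73 without, a log2 difference of 0.53 on the deposited scale. After trend correction it was at 0.0191, so its higher value without iron was that of other probe sets as bright. The authors' deposited table nevertheless gives IQD28 the lowest q value of the 22 members, 3.23e-05, while CML37, with the largest difference on this pair of arrays, has 0.0387. IQD30 behaved in the same way, reading 1.34 with iron and 1.75 without, 0.38 on the deposited scale and 0.0049 after trend correction. IQD31 read 1.401 and 1.716, with differences of 0.29 on the deposited scale and -0.09 after trend correction.

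IQD22, IQD23 and IQD24 were all higher without iron on the deposited scale and on both sides of the curve. IQD24 read 1.16 with iron and 1.59 without, with log2 differences of 0.45 on the deposited scale and 0.13 after trend correction. IQD22 read 1.12 and 1.47, with 0.40 and 0.11. IQD23 read 1.32 and 1.56, with 0.24 on the deposited scale and -0.11 after trend correction. All 3 were within 1 local SD of like brightness.

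The remaining IQD genes above the Bacillus controls on both arrays were IQD15, IQD16, IQD18 and IQD19. IQD15 read 1.09 with iron and 1.16 without, and its log2 difference of 0.09 on the deposited scale became -0.12 after trend correction. IQD16, known also as ABNORMAL SHOOT 6, which promotes the severing and ordering of cortical microtubules, read 0.856 and 0.895, with differences of 0.06 and 0.0234. Both genes thus read nearly the same on the 2 arrays. IQD18 read 0.870 and 0.823 (-0.08 on the deposited scale, -0.09 after trend correction). IQD19 read 0.789 with iron and 0.672 without, -0.23 on the deposited scale and -0.12 after trend correction. In units of the local SD IQD19 was the farthest of these 4 from the curve, at -1.02, and on the log2 scale IQD15 and IQD19 were equally far at 2 decimals.

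IQD26 read 0.757 with iron and 0.599 without, so it exceeded the Bacillus controls on the array with iron only. Its difference was -0.34 on the deposited scale and -0.15 after trend correction, with a local SD of 0.10. IQD21 at 0.693 and 0.561, and IQD27 at 0.643 and 0.505, were not above these controls on either array. Altogether 15 of the 22 members exceeded the Bacillus controls on both arrays, 1 on the array with iron only and 6 on neither, beside 61.0% of all plant probe sets on both.

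A member's rank among all plant probe sets of the same array does not depend on any scaling that keeps the order of values. CML37 stood at percentile 76.0 with iron and 90.8 without, a shift of 14.7 points and the largest of the 22. IQD33 went from 67.1 to 55.4, IQD26 from 40.8 to 31.9 (without iron not above the Bacillus controls) and IQD32 from 75.3 to 66.7. IQD19 was next with a shift of -5.27 points, and the other members shifted less, with CML38 at 71.3 and 74.4 and IQD28 at 82.6 and 82.8. These positions compare 1 probe set between arrays, not the amounts of different transcripts.

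**Figure D4:**
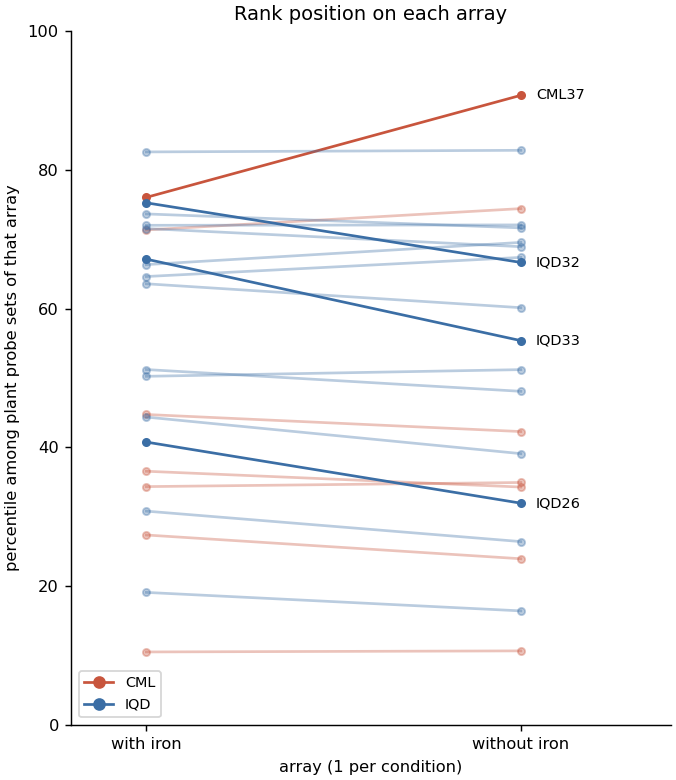
Percentile of each member among the 22746 plant probe sets of the array with iron (left) and of the array without iron (right), 1 array each, with CML genes in red and IQD genes in blue. CML37 moves up from 76.0 to 90.8, and IQD33, IQD26 and IQD32 shift by -11.7, -8.81 and -8.60 points. IQD19 shifts by -5.27 points, and the other members shift less.

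Over all 22 members, 10 read higher and 12 lower without iron on the deposited scale, beside 49.9% higher over all plant probe sets. The median log2 difference was -0.05, and -0.0023 over all plant probe sets. After trend correction the members' median was -0.04, with 13 of 22 below 0, beside 49.2% of all plant probe sets. The direction on the deposited scale followed brightness: all 10 dim members were lower, and 10 of the 12 bright members were higher, with IQD32 and IQD33 as the exceptions. Over all plant probe sets, 10470 of the 11373 dim ones were lower and 10442 of the 11373 bright ones were higher. Within 1 local SD of the curve were 17 of 22 members, beside 67.8% of all plant probe sets.

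A q value under 0.05 was given to 10 of the 22 members in the authors' deposited table, beside 61.3% of all plant probe sets. By the authors' deposited table, 4 of the 22 members had such a q and were higher without iron on this pair of arrays. They were CML37, IQD24, IQD28 and IQD30, and the same held for 22.3% of all plant probe sets. Another 6 of the 22 had such a q in the authors' deposited table and were lower, beside 39.0% of all plant probe sets. They were CML23, CML30, CML41, IQD21, IQD26 and IQD27. All 6 were dim, and only CML30 exceeded the Bacillus controls on both arrays. After IQD28, the lowest q values of the authors' deposited table were those of CML41 (0.000722) and IQD27 (0.00138), which read within the range of those controls on both arrays. Which arrays these q values rest on is not stated.

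Other genes of calcium signalling gave few values. None of the 9 calmodulins, 57 calmodulin-binding regulators, 12 microtubule partners of IQD proteins and 35 kinase target symbols listed had a probe set paired with 1 gene. Among 68 listed channel symbols 8 were measured, all glutamate receptor-like genes, and none differed by 1.5-fold on either scale. Only 4 of the 8 exceeded the Bacillus controls on both arrays. GLR2.7, GLR2.8, GLR2.9 and GLR3.5 exceeded them on neither array, so these 4 had no measured signal in which to see a change. Of all plant probe sets, 12.6% passed 1.5-fold upward and 0.233% downward as deposited. After trend correction these shares were 0.567% and 0.774%. GLR3.3, a channel needed for wound signals that travel between leaves, read 0.950 with iron and 1.18 without, 0.31 on the deposited scale and 0.14 after trend correction. GLR3.6, which acts with it, read 1.03 and 1.09, with differences of 0.07 and -0.10.

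Of 36 listed pump and exchanger symbols, NCL, a sodium and calcium exchanger-like protein of the vacuole with EF-hand loops, was measured. It read 16.9 with iron and 25.8 without, 1.52-fold higher on the deposited scale but at 0.0238 after trend correction. Among 29 other listed symbols 2 were measured. CRT1b, a calreticulin that stores calcium in the endoplasmic reticulum, read 6.20 and 6.93, with a log2 difference of 0.16 on the deposited scale and -0.46 after trend correction (local SD 0.25). CAS, a calcium sensor of the thylakoid membrane, read 0.715 and 0.572 and was not above the Bacillus controls.

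Markers of root cell types were thinly covered. Of 8 pericycle and stele markers 2 were measured: LBD16, a factor of lateral root initiation, read 1.60 with iron and 2.26 without, 0.50 on the deposited scale and 0.0442 after trend correction (local SD 0.20), while LBD29 was not above the Bacillus controls. The cortex gene AT1G62500 was also within those controls, and no endodermis, xylem or root cap marker listed had a value. The root hair expansins EXPA7 and EXPA18, the 2 of 5 epidermis and root hair markers measured, read 1.06 and 0.993 with iron and 0.820 and 0.802 without. Both exceeded the highest Bacillus control on each array, which read 0.727 with iron and 0.635 without. Their summed intensity, with no background taken off, was 2.06 with iron and 1.62 without. After trend correction EXPA7 lay at -0.47 (local SD 0.14) and EXPA18 at -0.36 (local SD 0.16). The phloem marker OPS read 0.768 with iron and 0.866 without, 0.17 on the deposited scale and 0.19 after trend correction (local SD 0.13). The part of other cell types in any difference given here was not tested.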

How the data were processed

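Per the labels' protocols, total RNA of sorted protoplasts was amplified in successive rounds, labelled with biotin and hybridised, with 3 biological replicates made per line, of which 1 array per condition was used. The values deposited by the authors are intensity on a linear scale (all above 0, right-skewed). How background was corrected and arrays were scaled is not given in the sources used here, and neither is the test behind the q-value that the authors deposited for each probe set. Of 22801 probe sets 55 are controls. The platform table, which can be dated, pairs 13513 plant probe sets with 1 gene, 503 with several and 8730 with none. All 22 members were found by gene ID in the TAIR10.1 table, and 4 lower-case symbols are written in capitals.

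Computed here were log2 differences with no pseudocount, a lowess curve (fraction 0.2, statsmodels 0.14.6) over all plant probe sets, tested on simulated data, and counts at 1.5-fold. The simulated data were built from that same curve and local SD, so they checked the calculation and not whether the curve removes real change. Every member was named, including dim ones beyond the 3 per family that the naming rule allowed, and of each fixed list up to 6 bright genes by trend-corrected size, with CAS and marker genes added after their values were seen. Matches to 3 unrelated genes of the same name (CRT1, CP1 and PEP) were left out. Members and lists were chosen with earlier results of these data known. The number of arrays limits the precision, and no detection call was used.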

Additional observations from a re-analysis of the deposited data

How the results depend on the processing

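The count of members at least 1.5-fold higher without iron stayed at 1, CML37, with quantile normalization, the median difference of all plant probe sets set to 0, the lowess curve subtracted, an offset and a scale factor removed (0.341 and 0.583), a pseudocount of 1, filters on brightness, a 2-fold threshold and changes to the member names, and was 0 with a pseudocount of 16, which exceeds every member's value. The count at least 1.5-fold lower was 0 under all of these. The median log2 difference over members, -0.05, became 0.34 when only the 12 members at or above the median brightness were kept and 0.29 when only the 13 members whose higher value reached the median of all values were kept, because dim members read lower and bright ones higher on the array without iron. Under the scalings the median stayed between -0.05 and -0.04. CML37 was 1.09 higher on the log2 scale after quantile normalization and 1.00 with the offset and the scale factor removed. IQD33 was at -0.44 and -0.35 and IQD32 at -0.38 and -0.31 under these. The 4 scalings were not independent checks. Setting the median difference to 0 left each value almost as deposited, and the others gave members similar values with the brightness trend reduced. Across the 4 scalings 7 members stayed higher, 10 stayed lower and 5 (CML41, CML43, IQD15, IQD23 and IQD31) took both signs. Some of these signs rested on values near 0, such as 0.0025 for IQD30 with quantile normalization. IQD27 was at -0.0163 with the offset and the scale factor removed. The same share over all plant probe sets was not counted. No member is measured by a probe set marked as binding several genes, and none has a second probe set. Counting AT1G76640 as a member, an alternative added after seeing the data, gave a median of -0.0282. No paired analysis was possible because each condition has 1 array. With 1 array per condition no difference, of any size, can be set against array-to-array variation.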
